A study of Mus musculus with 6 samples.

Results

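The 53 genes described here encode proteins that remodel nucleosomes, write or remove histone marks, methylate or demethylate DNA, or bend and coat chromatin. They were taken by name from a table of 54884 gene entries, and each name matched 1 entry. They comprise 16 subunits of the BAF (SWI/SNF) remodelling complex, 4 CHD remodellers, 9 Polycomb genes, 6 deacetylases, 8 DNA methylation genes, 4 other histone modifiers and 6 high mobility group (HMG) genes. The rule that picks them is a list of names and holds no threshold on a measured value, though the list was drawn up with earlier results of these data known. The cells were neural stem cells of C57BL/6J mice, taken from the hippocampus at embryonic day 14 and used between passages 3 and 8. Both groups were transduced with a lentivirus: 3 control libraries received a control siRNA (circCon) and 3 received an siRNA against circHIPK2, a circular RNA. Poly(A) RNA was sequenced in paired ends, and levels are FPKM, fragments normalised to transcript length and library size, which can be compared between genes because they are per length. Nothing in the sources used here says whether the libraries came from separate cultures, so the spread that the p-values rest on may be technical. The level of the circle was not analysed here, so no value below checks the silencing.

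Nucleosome remodellers use ATP to slide or evict nucleosomes. In the developing nervous system the BAF complex exchanges subunits as progenitors become neurons: Actl6a and Phf10 belong to the progenitor form, and Actl6b and Dpf1 to the neuronal form. Polycomb repressive complex 2, with Ezh2 or Ezh1 as its enzyme and Eed and Suz12 as partners, methylates histone H3, and Polycomb repressive complex 1, with Ring1, Rnf2, Bmi1 and Cbx proteins, binds that mark and ubiquitinates histone H2A. Dnmt1 copies DNA methylation after replication, Dnmt3a and Dnmt3b lay it down afresh, and the Tet enzymes oxidise it.

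The libraries held an estimated 18430000 to 21900000 fragments, a spread of 1.19-fold. The 9 entries of the ribosomal RNA locus took 0.321 to 0.580% of all FPKM in the control libraries and 3.24 to 19.9% in the siRNA libraries, and the median log2 fold change over all 13702 entries tested was -0.12. After median-of-ratios scaling, which sets each library by the typical ratio of its genes, that median was -0.0012. Member values are therefore given on both scales. Of 12 neural stem cell markers 11 were tested and 0 called: Sox2 averaged 98.0 FPKM in control and 104.5 FPKM in siRNA libraries and Nes 77.2 and 71.0, while Fabp7 (1206 and 755 FPKM), Hes5 (17.2 and 10.1) and Hes1 (8.34 and 7.16) lay wholly lower with the siRNA on deposited values. Hes5 and Hes1 also did so after scaling. Some markers of other neural cells were present too, with sums over all libraries of 304 to 656 FPKM for astrocytes, 623 to 847 for the oligodendrocyte lineage and 185 to 248 for neurons. Few genes made up most of the neuron and oligodendrocyte sums. In control libraries Map2 and Gap43 averaged 109 and 107 FPKM, and Olig1 and Olig2 452 and 242 FPKM. Rbfox3, Stmn2, Neurod2 and Mog of these lists averaged at most 0.258 FPKM in either group. None of these neural markers was called, but with limma's library weights Hes5 and Tubb3 were, at adjusted p of 0.0371 and 0.0385. The neuron markers Tubb3 (log2 fold change -0.49) and Map2 (-0.29) lay wholly lower on both scales, and Pdgfra (-0.66) and Cspg4 (-0.44) of the oligodendrocyte lineage had an unadjusted limma p of 0.0438 and 0.0175. In the same lists Gap43 (-0.14, or 0.0015 after scaling) and Mbp (0.053) overlapped between groups. Rbfox3, at means of 0.195 and 0.258 FPKM and not tested, lay wholly higher after scaling. The astrocyte marker Gfap averaged 109 FPKM in control and 186 FPKM in siRNA libraries, with overlap (log2 fold change 0.75). Summed markers of microglia, endothelium and red cells stayed at or below 0.805 FPKM in every library. Summed liver markers were 35.2 to 58.7 FPKM in control and 2.10 to 2.22 FPKM in siRNA libraries, and 8 of the 8 tested were called lower. All of these but Apoa2 averaged at most 0.0781 FPKM in siRNA libraries. They reached the mean of 1 FPKM needed for testing only through the control libraries, so the count follows in part from that filter. The part of these marker differences, of the liver signal and of the ribosomal RNA share in the results was not tested.

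Of the 53 genes, 51 had a mean of at least 1 FPKM and were tested; Actl6b and Dnmt3b lay below it. With limma and Benjamini-Hochberg adjustment over all entries, 0 of 51 were called higher with circHIPK2 siRNA, where 0.117% of all entries were, and 0 of 51 were called lower, where 0.139% were. Adjusted p ran from 0.128 for Ezh2 to 0.997 for Hdac9. At an unadjusted p below 0.05, 1 gene (Tet2) was higher beside 1.83% of all entries, and 7 genes (Actl6a, Chd3, Ezh2, Hdac2, Dnmt1, Mbd3 and Hmgb3) were lower, or 13.7% of the genes tested beside 15.5% of all entries. After median-of-ratios scaling 7 genes were higher at that unadjusted p (Dpf2, Tet2, Kmt2a, Crebbp, Ep300, Hmga1 and Hmga2), or 13.7% beside 6.5% of all entries, and 5 were lower (Actl6a, Chd3, Ezh2, Mbd3 and Hmgb3), or 9.80% beside 6.84%.

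Genes were also counted by whether the 3 siRNA libraries all lay on one side of the 3 control libraries. On deposited FPKM, 3 genes lay wholly higher, or 5.88% beside 2.65% of all entries, and 13 wholly lower, or 25.5% beside 22.1%. After scaling, 8 lay wholly higher, or 15.7% beside 10.1%, and 6 wholly lower, or 11.8% beside 10.1%. The median log2 fold change of the 51 genes was -0.11 beside -0.12 over all entries, and 0.022 beside -0.0012 after scaling; 29 genes lay above the median of all entries and 22 below. The fold change tested is of FPKM + 1, which understates low genes. Its 95% interval stayed within 2-fold in either direction for 49 of 51 genes, all but Chd7 and Hmgb1, and within 1.5-fold for 39. Among all entries tested 96.7% and 76.3% met these bounds.

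**Figure D1:**
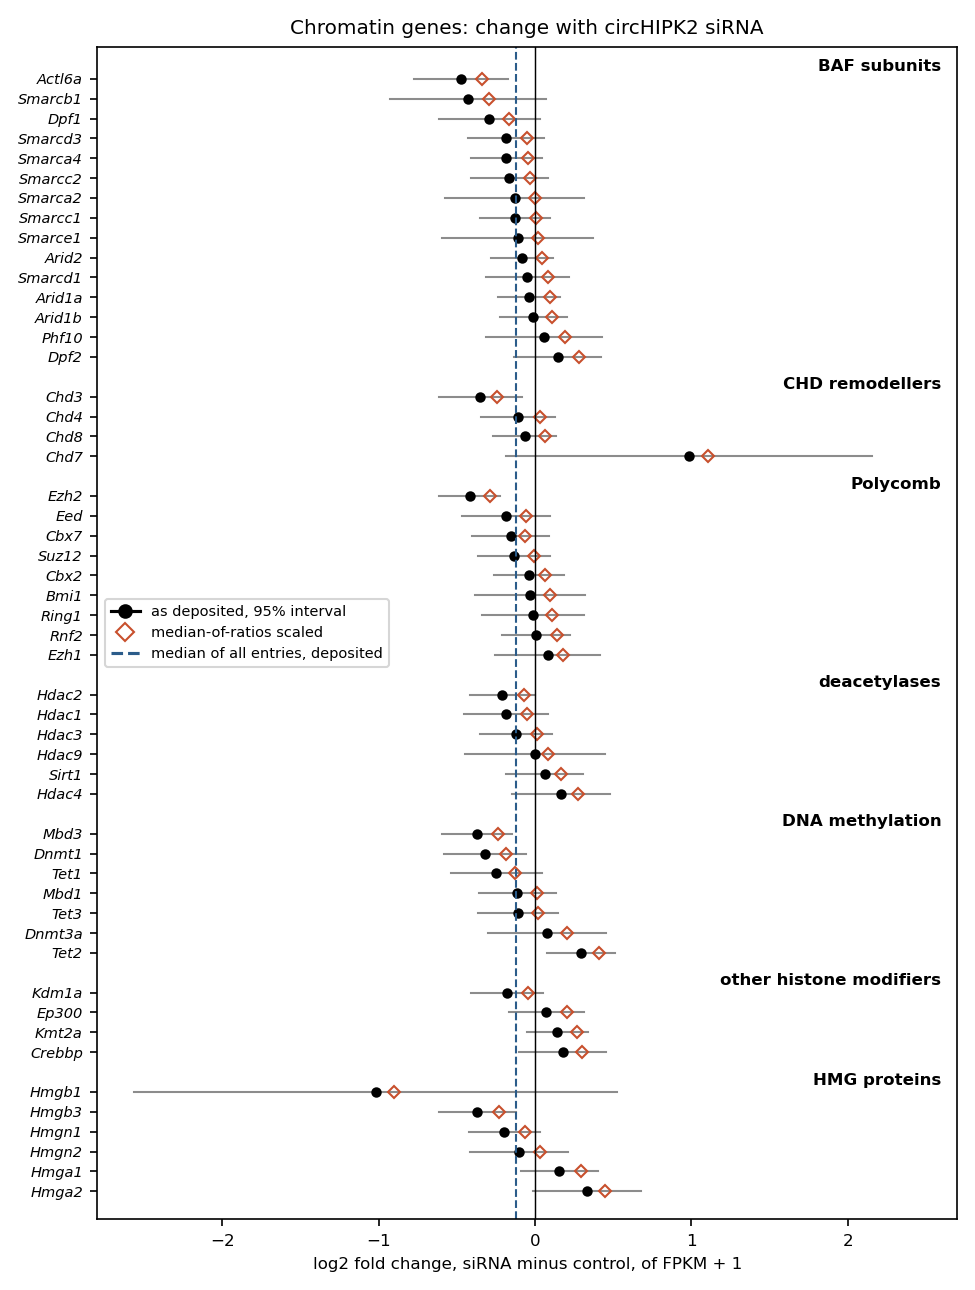
Log2 fold change of FPKM + 1, siRNA minus control, for the 51 genes tested, by role. Black points with bars are deposited values with 95% intervals, open diamonds the values after median-of-ratios scaling, and the dashed line the median of all entries at -0.12; the bars of Chd7 and Hmgb1 are the longest, and Ezh2 at -0.42 has the smallest p.

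Among Polycomb genes, Ezh2 had the smallest p of the 51 genes tested on deposited values; after scaling Tet2, Mbd3, Hmga1, Hmga2 and Kmt2a had smaller ones. The 300 bases around its start (RefSeq, GRCm38.p6, from 250 before to 50 after the start, 5′ to 3′ on the strand of the gene) are shown with those of Dnmt1, Mbd3 and Tet2. These 4 genes separate the groups on both scales, Tet2 in the opposite direction to the others. They were chosen after their values were seen. Of the genes tested, Actl6a, Chd3, Hmgb3, Kmt2a and Hmga2 separate the groups on both scales too and are not printed. Capitals mark 8-base motifs of the kind that E2F factors, regulators of S phase genes, are known to bind; TTTCCCGC, TTTCGCGC, TTTGCCGC and TTTGGCGC were searched on both strands.
Ezh2, chr6:47594981-47595280, minus strand: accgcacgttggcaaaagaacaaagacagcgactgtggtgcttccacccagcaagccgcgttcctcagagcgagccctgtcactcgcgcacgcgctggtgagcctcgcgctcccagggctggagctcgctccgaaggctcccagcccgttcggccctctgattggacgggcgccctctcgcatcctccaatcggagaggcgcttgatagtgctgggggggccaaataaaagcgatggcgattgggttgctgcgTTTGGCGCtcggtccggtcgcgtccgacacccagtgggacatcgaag
Dnmt1, chr9:20952574-20952873, minus strand: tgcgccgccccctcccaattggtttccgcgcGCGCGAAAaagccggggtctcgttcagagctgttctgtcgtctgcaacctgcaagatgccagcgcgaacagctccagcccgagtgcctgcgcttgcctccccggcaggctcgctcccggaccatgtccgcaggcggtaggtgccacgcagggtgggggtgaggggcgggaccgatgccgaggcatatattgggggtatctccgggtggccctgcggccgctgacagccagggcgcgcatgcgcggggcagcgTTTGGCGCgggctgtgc
Mbd3, chr10:80399482-80399781, minus strand: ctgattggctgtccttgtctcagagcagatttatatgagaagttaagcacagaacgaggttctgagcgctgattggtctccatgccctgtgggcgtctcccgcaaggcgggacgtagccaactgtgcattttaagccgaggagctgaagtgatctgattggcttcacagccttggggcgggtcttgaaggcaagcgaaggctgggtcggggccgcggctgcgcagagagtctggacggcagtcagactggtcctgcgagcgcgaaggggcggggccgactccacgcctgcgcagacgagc
Tet2, chr3:133544341-133544640, minus strand: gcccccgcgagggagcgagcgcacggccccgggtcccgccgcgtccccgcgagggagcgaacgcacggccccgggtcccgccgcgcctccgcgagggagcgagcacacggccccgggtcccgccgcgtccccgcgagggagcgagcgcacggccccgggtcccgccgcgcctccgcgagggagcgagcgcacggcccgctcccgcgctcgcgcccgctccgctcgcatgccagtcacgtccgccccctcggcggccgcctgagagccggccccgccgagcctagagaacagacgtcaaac
The Ezh2 window held 1 such motif and 31 CpG dinucleotides, the printed Dnmt1 window 2 motifs and 33 CpG, the Mbd3 window 0 motifs and 22 CpG, and the Tet2 window 0 motifs and 57 CpG. Dnmt1 has 3 windows, and the other two, with 2 and 12 CpG, hold 0 motifs. RefSeq windows matched 45 of the 53 genes, and 5 of the 45 (Arid1a, Ezh2, Dnmt1, Suz12 and Smarcd1), or 11.1%, held a motif, beside 2.605% of 27025 genes. Among these 5, Arid1a and Smarcd1 overlapped between groups on both scales, and Suz12 did after scaling. Actl6a, Mbd3 and Hmgb3 lay wholly lower on both scales and hold no motif. The median of the 54 windows of these 45 genes was 30 CpG and the median window of all genes held 7. Each motif searched holds a CpG, and the share over all genes was not matched for CpG, so the 11.1% and 2.605% are not like for like. A match describes letters in this window and is no measured binding.

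Ezh2, which methylates histone H3, read 21.2, 22.2 and 22.3 FPKM in the control libraries, in the order of their numbers as throughout, and 15.6, 16.2 and 16.6 FPKM with the siRNA. All 3 siRNA libraries lay below all 3 control libraries. The log2 fold change was -0.42 (SE 0.09, 95% interval -0.62 to -0.22) with an adjusted p of 0.128 by limma, and -0.29 after scaling with an adjusted p of 0.24. With limma's library weights, which let a noisier library count less, the adjusted p of Ezh2 was 0.0363 and that of Mbd3 was 0.048; these were the 2 genes of 51 called lower with weights, where 1.93% of all entries were. No setting but the weights gave a call for either gene: over all settings adjusted p ran from 0.0363 to 0.457 for Ezh2 and from 0.048 to 0.495 for Mbd3.

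Ezh1, its less abundant paralogue, read 1.74, 2.88 and 2.22 FPKM in control and 2.18, 2.38 and 2.77 FPKM in siRNA libraries. These groups overlapped. The ratio of Ezh1 to Ezh2 within a library, which does not depend on that library's scale, was 0.0822, 0.130 and 0.0994 in control and 0.140, 0.147 and 0.167 in siRNA libraries. Every siRNA ratio was above every control ratio, by 1.48-fold on average (two-sided exact permutation test, p = 0.1, which is the floor for groups of 3, and 0.3 after adjustment over 21 pairs). Eed, the partner that reads the mark, read 24.1, 20.8 and 22.5 FPKM in control and 17.8, 23.2 and 18.05 FPKM in siRNA libraries, and siRNA library 2 lay within the control range. Suz12, Bmi1, Ring1, Rnf2, Cbx2 and Cbx7 had log2 fold changes of -0.15 (Cbx7) to 0.0059 (Rnf2). Suz12 and Cbx7 lay wholly lower on deposited FPKM and overlapped after scaling, whereas Rnf2, a ubiquitin ligase, lay wholly higher only after scaling.

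In the DNA methylation group, Mbd3, a subunit of the NuRD corepressor complex, had the highest mean FPKM of the 53 entries, not counting near-identical copies of other genes. It read 99.7, 92.0 and 96.4 FPKM in control and 72.7, 79.7 and 69.7 FPKM in siRNA libraries. The groups did not overlap, on deposited values or after scaling. Its log2 fold change was -0.37 (SE 0.10, adjusted p = 0.172 by limma) and -0.23 after scaling. Dnmt1, the maintenance methyltransferase, read 46.0, 36.2 and 42.8 FPKM in control and 31.9, 35.9 and 31.3 FPKM in siRNA libraries. Control library 2 and siRNA library 2 differed by little, and the groups still did not overlap. The log2 fold change of Dnmt1 was -0.32 (SE 0.12, adjusted p = 0.231 by limma), or -0.19 after scaling.

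Tet2, which oxidises methylcytosine, was the one gene of the group with higher values in all siRNA libraries. It read 5.30, 5.17 and 4.70 FPKM in control and 6.17, 6.56 and 6.53 FPKM in siRNA libraries. The log2 fold change was 0.29 (SE 0.09, adjusted p = 0.206 by limma) and 0.41 after scaling, with an adjusted p of 0.165. Tet3 read 11.9, 12.9 and 15.2 FPKM in control and 11.5, 13.3 and 12.0 FPKM in siRNA libraries, with overlap. The ratio of Tet2 to Tet3 was 0.444, 0.400 and 0.310 in control and 0.535, 0.494 and 0.544 in siRNA libraries, again without overlap (exact permutation p = 0.1). Mbd1, a reader of methylated CpG, read 10.8, 11.4 and 10.5 FPKM in control and 9.60, 11.4 and 9.08 FPKM in siRNA libraries. Its log2 fold change changed sign with the scale, from -0.11 to 0.014, and the ratio of Mbd3 to Mbd1 was 9.23, 8.09 and 9.16 in control and 7.57, 6.97 and 7.68 in siRNA libraries. Tet1 and Dnmt3a had log2 fold changes of -0.25 and 0.078 with overlapping groups. Dnmt3b stayed between 0.542 and 0.816 FPKM over all 6 libraries.

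Cell cycle genes are given beside these values. In a list of 20 S phase genes (such as Mcm2 and Pcna), 19 of 20 had a log2 fold change below the median of all entries and 0 were called. Their summed level was 482 to 600 FPKM in control and 402 to 450 FPKM in siRNA libraries. In a list of 20 mitosis genes 20 of 20 lay below that median and 0 were called, with sums of 618 to 730 and 513 to 522 FPKM. With limma's library weights, which called Ezh2 and Mbd3, 2 of the 20 S phase genes (Pcna and Prim1) and 10 of the 20 mitosis genes were called lower too. The part of these genes in the values of Ezh2, Dnmt1, Mbd3 and the HMG genes was not tested. In a bulk library, fewer cells of a kind and less RNA per cell cannot be told apart.

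**Figure D2:**
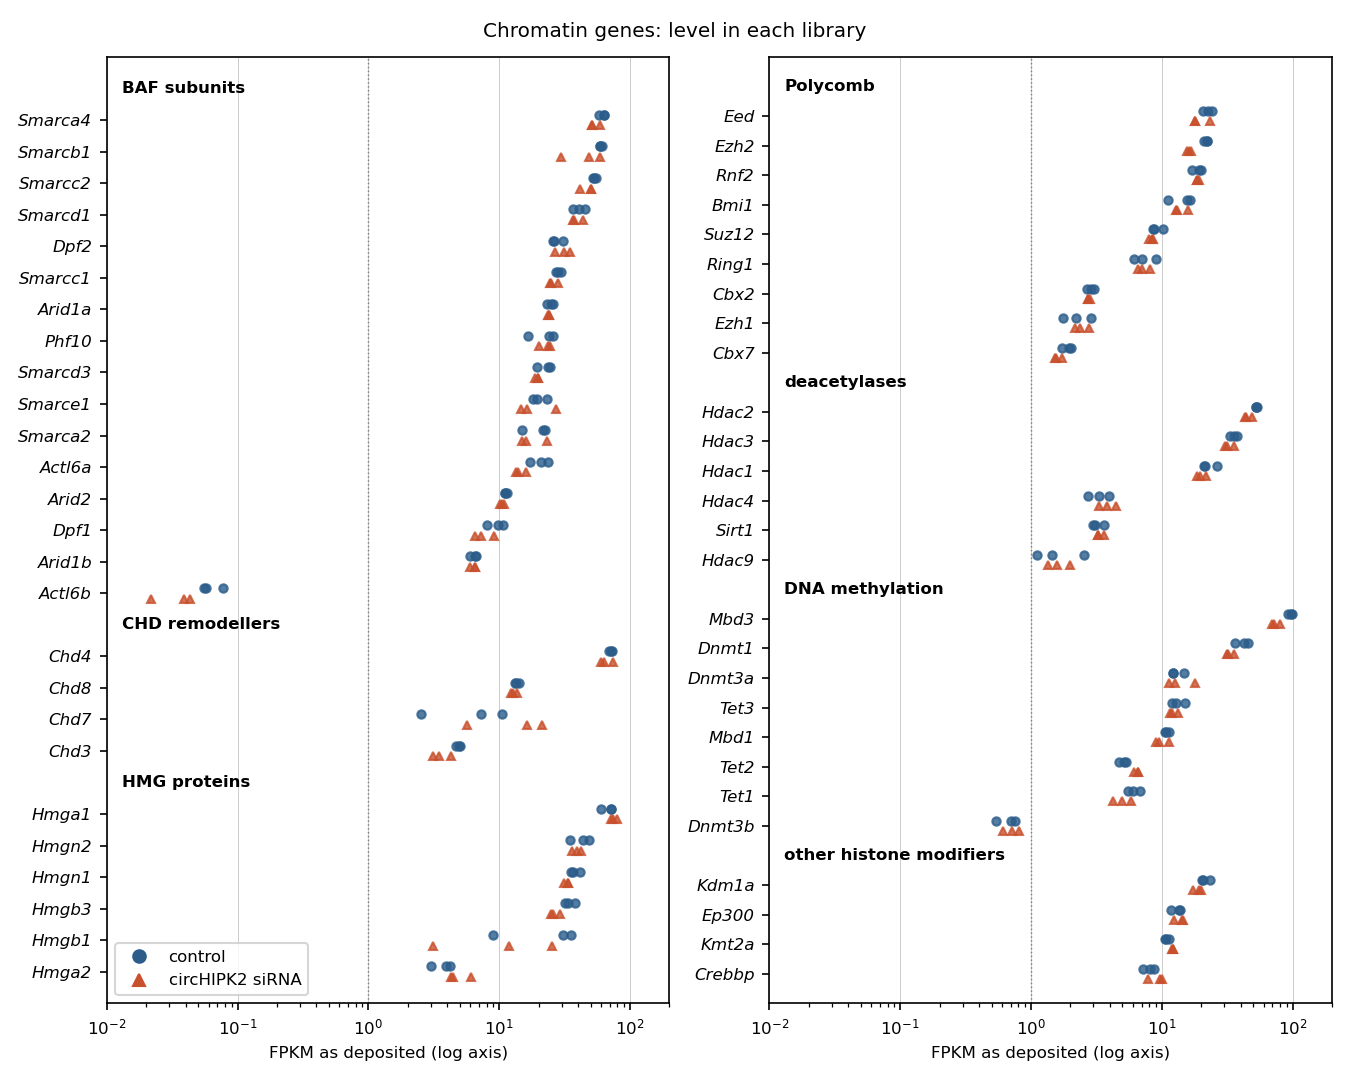
FPKM as deposited (log axis) of all 53 genes by role, with circles for the 3 control and triangles for the 3 circHIPK2 siRNA libraries and a dotted line at the 1 FPKM needed for testing. Actl6b and Dnmt3b lie left of that line, Ezh2 lies at 21.2 to 22.3 in control and 15.6 to 16.6 in siRNA libraries, and most genes overlap between groups.

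BAF subunits formed the largest group, with 15 of 16 tested and 0 called. The ATPase Smarca4 was the most abundant, with 62.6, 57.5 and 62.7 FPKM in control and 50.9, 58.6 and 51.4 FPKM in siRNA libraries. The ranges overlapped through siRNA library 2. Its log2 fold change was -0.18 on deposited values and -0.046 after scaling, with a small positive value under quantile normalization. Actl6a, the actin-like subunit of the progenitor complex, read 23.6, 17.1 and 21.0 FPKM in control and 14.0, 16.1 and 13.3 FPKM in siRNA libraries, without overlap. Its log2 fold change of -0.47 (SE 0.13, adjusted p = 0.185 by limma) was the lowest of the BAF subunits. The Mrpl47 gene overlaps Actl6a by 452 bases on the opposite strand at 5.38 to 6.81 FPKM, and the sources used here do not say whether the counting used strand. Actl6b, the neuronal counterpart, was at 0.0219 to 0.0771 FPKM, an estimated 1.42 to 5.23 fragments a library.

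Dpf1 and Dpf2 encode alternative zinc finger subunits. Dpf1 read 10.7, 8.04 and 9.81 FPKM in control and 6.52, 9.04 and 7.28 FPKM in siRNA libraries. Dpf2 read 26.4, 25.9 and 30.8 FPKM in control and 26.7, 34.6 and 31.0 FPKM in siRNA libraries. Each overlapped between groups. The ratio of Dpf1 to Dpf2 was 0.407, 0.311 and 0.319 in control and 0.244, 0.261 and 0.235 in siRNA libraries, without overlap, at 0.719 of the control ratio on average (exact permutation p = 0.1, 0.3 adjusted). Smarcd3 read 23.5, 19.5 and 24.3 FPKM in control and 18.9, 19.8 and 19.9 FPKM in siRNA libraries, and Smarcd1 read 40.5, 36.4 and 45.3 FPKM in control and 36.7, 43.6 and 37.6 FPKM in siRNA libraries. Neither gene separated the groups, and their ratio did by a narrow margin, from a lowest control value of 0.534 to a highest siRNA value of 0.530. Smarcd3 shares 2050 bases with Chpf2 on the opposite strand.

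The core subunit Smarcb1, named after its values were seen, read 58.6, 59.0 and 61.5 FPKM in control and 29.5, 59.2 and 48.9 FPKM in siRNA libraries. siRNA library 1 was the lowest of the 6 libraries, and siRNA library 2 lay within the control range. Smarca2, Smarcc1, Smarcc2, Smarce1, Arid1a, Arid1b, Arid2 and Phf10 had log2 fold changes of -0.17 (Smarcc2) to 0.059 (Phf10), with adjusted p of 0.43 to 0.962 by limma. The DNA-binding subunit Arid1a varied by 1.10-fold over all 6 libraries.

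Among CHD remodellers, Chd4, the main NuRD ATPase, read 72.4, 68.5 and 71.4 FPKM in control and 63.7, 73.5 and 60.3 FPKM in siRNA libraries, and the groups overlapped. Chd3, its less abundant paralogue, read 4.65, 4.96 and 4.98 FPKM in control and 3.48, 4.25 and 3.12 FPKM in siRNA libraries, without overlap (log2 fold change -0.35, SE 0.12, adjusted p = 0.212 by limma). The ratio of Chd3 to Chd4 was 0.0643, 0.0724 and 0.0697 in control and 0.0547, 0.0579 and 0.0517 in siRNA libraries, also without overlap. Chd7, mutated in CHARGE syndrome, read 10.5, 2.52 and 7.29 FPKM in control and 16.4, 21.4 and 5.66 FPKM in siRNA libraries. It varied 8.47-fold over the 6 libraries, and its spread within groups was above that of 99.7% of entries tested. The log2 fold change of 0.98 therefore had an interval of -0.19 to 2.15. Chd8 stayed within 1.14-fold over all libraries.

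**Figure D3:**
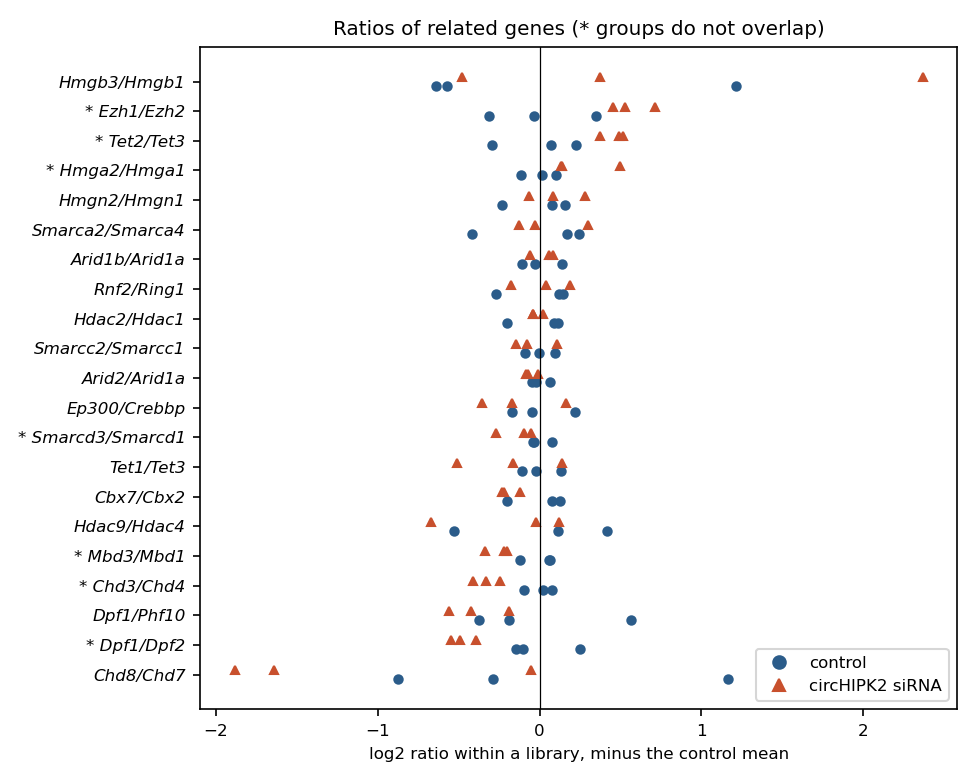
Log2 ratio of paralogous genes within each library, minus the control mean, for the 21 pairs compared, with circles for control and triangles for siRNA libraries; a star marks the 7 pairs whose groups do not overlap. Ezh1/Ezh2, Tet2/Tet3 and Hmga2/Hmga1 are higher in the siRNA libraries, and Dpf1/Dpf2, Chd3/Chd4, Mbd3/Mbd1 and Smarcd3/Smarcd1 are lower, each with an exact permutation p of 0.1.

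Deacetylases remove acetyl groups from histones and lower transcription where they are recruited. Hdac2 was the most abundant, with 53.2, 52.6 and 52.1 FPKM in control and 43.5, 48.7 and 44.2 FPKM in siRNA libraries. The groups did not overlap on deposited values (log2 fold change -0.21, adjusted p = 0.285 by limma) and overlapped after scaling, where it was -0.073. Hdac1 read 26.6, 21.2 and 21.2 FPKM in control and 18.6, 21.7 and 19.7 FPKM in siRNA libraries, with overlap. A processed pseudogene, Gm10093, differs from Hdac1 at 9 of 1444 coding bases and was at 13.2 to 19.1 FPKM, so the Hdac1 level is uncertain. The ratio of Hdac2 to Hdac1 overlapped as well, with an average at 0.987 of the control ratio. Hdac3, Hdac4, Hdac9 and Sirt1 had log2 fold changes of -0.12 to 0.17, and Sirt1 lay wholly higher only after scaling.

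Of the other histone modifiers, Kmt2a, a methyltransferase of histone H3, read 10.6, 10.7 and 11.4 FPKM in control and 12.1, 12.2 and 12.1 FPKM in siRNA libraries. The groups did not overlap on either scale, with a log2 fold change of 0.14 (adjusted p = 0.4 by limma) and 0.27 after scaling. Kdm1a, a demethylase, read 20.6, 20.4 and 23.3 FPKM in control and 19.2, 20.0 and 17.2 FPKM in siRNA libraries, lower without overlap on deposited values and overlapping after scaling. The acetyltransferases Crebbp and Ep300 overlapped on deposited values, with log2 fold changes of 0.18 and 0.072, and lay wholly higher after scaling, at 0.30 and 0.20.

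HMG proteins bind and bend DNA or loosen nucleosomes, and their transcripts have many retrotransposed copies in the mouse genome. The table held 42 entries that matched Hmgb1 over at least 300 bases at 95% identity or more. The copy sets are shown by their sequences because 1 base can be all that tells a read of one from a read of the other. Over the 645 coding bases of Hmgb1, the processed pseudogene Gm15387 (chr15:74093686-74094333, minus strand, GRCm38) differed at 1 base, A21G, counted from 1 at the first base of the 120 printed, which are coding bases 1 to 120. The differing base is in capitals.
Hmgb1: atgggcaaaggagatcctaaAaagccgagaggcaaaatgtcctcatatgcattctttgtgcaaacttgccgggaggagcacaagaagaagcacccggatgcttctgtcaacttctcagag
Gm15387: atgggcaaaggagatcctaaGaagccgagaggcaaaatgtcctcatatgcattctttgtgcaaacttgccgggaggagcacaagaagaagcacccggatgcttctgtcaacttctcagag
Over the 600 coding bases of Hmgb3, the processed pseudogene Gm6104 (chr1:4880049-4880651, minus strand) differed at 3 bases, of which C61T lies in coding bases 252 to 371, with positions counted from the first base printed.
Hmgb3: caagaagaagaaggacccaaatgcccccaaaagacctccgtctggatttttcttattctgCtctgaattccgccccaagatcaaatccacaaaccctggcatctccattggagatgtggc
Gm6104: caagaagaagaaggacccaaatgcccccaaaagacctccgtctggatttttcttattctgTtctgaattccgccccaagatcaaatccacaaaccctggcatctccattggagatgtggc

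Hmgb1 read 35.1, 30.8 and 9.03 FPKM in control and 11.8, 25.2 and 3.10 FPKM in siRNA libraries. It varied 11.3-fold over the 6 libraries, with a spread within groups above that of 99.9% of entries. The log2 fold change of -1.02 had an interval of -2.56 to 0.52. Gm15387 alone was listed at 166.5, 155.8 and 171.3 FPKM in control and 131.9, 150.4 and 137.7 FPKM in siRNA libraries, all above the Hmgb1 entry itself. The entry named Hmgb1 held 7.05, 6.94 and 1.95% of the summed FPKM of Hmgb1 and its copies in control and 3.19, 5.99 and 0.873% in siRNA libraries. That sum was 498, 443 and 463 FPKM in control and 370, 421 and 355 FPKM in siRNA libraries. With copies this alike and listed at this much higher FPKM, and the assignment of reads not stated, the levels of Hmgb1 and of its copies are uncertain in this table.

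**Figure D4:**
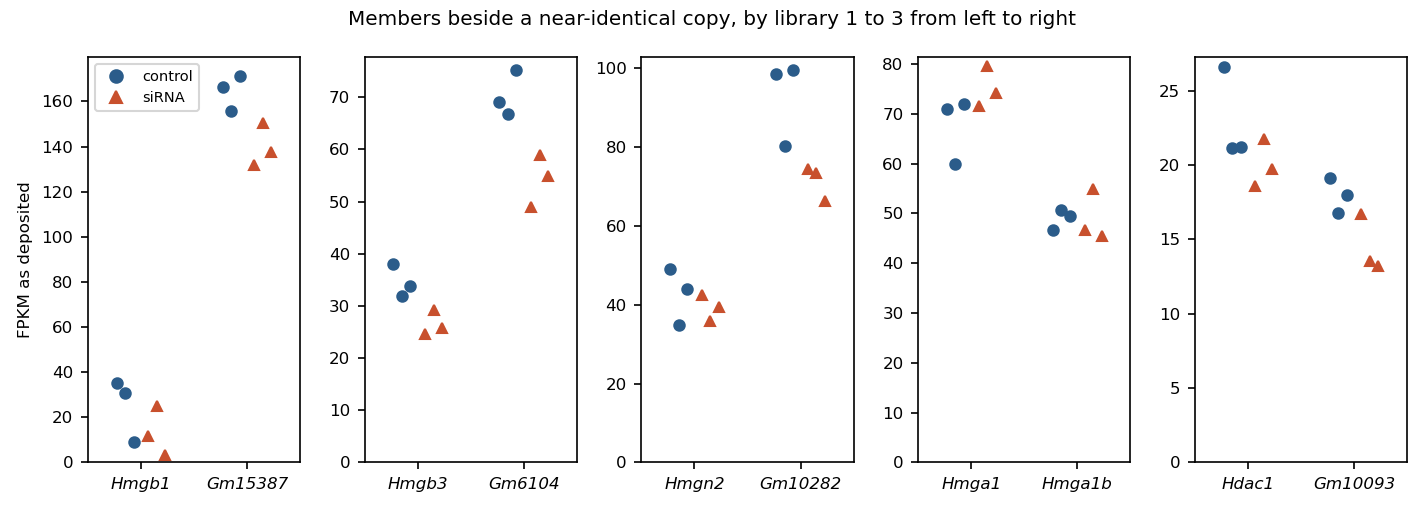
FPKM as deposited for 5 genes, each beside a near-identical copy, with libraries 1 to 3 from left to right, circles for control and triangles for siRNA. Hmgb1 runs from 3.10 to 35.1 while Gm15387 stays between 131.9 and 171.3, and Hmgb3 and Gm6104 are each lower in all siRNA libraries.

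Hmgb3 read 38.0, 31.9 and 33.8 FPKM in control and 24.7, 29.2 and 25.8 FPKM in siRNA libraries, without overlap (log2 fold change -0.37, SE 0.11, adjusted p = 0.191 by limma, -0.23 after scaling). Its copy Gm6104 was at 69.1, 66.7 and 75.2 FPKM in control and 49.0, 59.0 and 54.9 FPKM in siRNA libraries, at 0.772 of the control mean beside 0.768 for Hmgb3. How reads that match both were assigned is not stated in the labels, so the level of each is uncertain. Hmga1, an AT-hook protein, read 70.9, 59.8 and 72.0 FPKM in control and 71.6, 79.7 and 74.2 FPKM in siRNA libraries. Its 321 coding bases are identical to those of Hmga1b, which was at 46.8, 50.7 and 49.4 FPKM in control and 46.7, 55.0 and 45.5 FPKM in siRNA libraries, with overlap. Hmga2, known for its role in young neural stem cells, read 3.90, 3.00 and 4.19 FPKM in control and 4.27, 6.11 and 4.45 FPKM in siRNA libraries, higher without overlap by a narrow margin (log2 fold change 0.33, SE 0.15, adjusted p = 0.302 by limma). The ratio of Hmga2 to Hmga1 was 0.0551, 0.0502 and 0.0583 in control and 0.0596, 0.0767 and 0.0600 in siRNA libraries. Hmgn1 and Hmgn2, which bind nucleosomes, had log2 fold changes of -0.20 and -0.10. The 270 coding bases of Hmgn2 are identical to those of the Gm10282 entry, which was at 98.5, 80.1 and 99.5 FPKM in control and 74.5, 73.4 and 66.1 FPKM in siRNA libraries. Gm10282 did not overlap between groups, whereas the Hmgn2 entry did, so the level of each is uncertain.

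**Figure D5:**
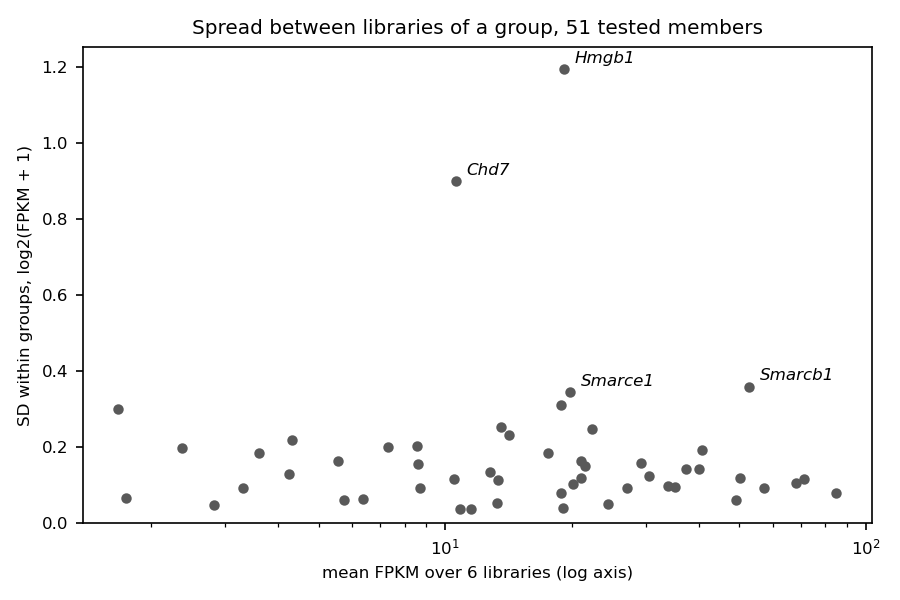
Spread between libraries of a group (SD of log2(FPKM + 1), vertical) against mean FPKM over the 6 libraries (log axis) for the 51 genes tested, 1 point per gene. Hmgb1 and Chd7 lie far above the other genes, followed by Smarcb1 and Smarce1.

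Across the 21 pairs, 7 ratios did not overlap between groups, and with exact permutation tests none passed after adjustment, the lowest adjusted p being 0.3 in a design whose smallest raw p is 0.1. The share of non-overlapping ratios among other gene pairs was not computed, and some of the 21 pairs share a gene. The 7 can therefore not be called many or few. The other 14 pairs overlapped, among them Smarca2/Smarca4, Arid1b/Arid1a, Rnf2/Ring1 and Hmgn2/Hmgn1.

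Chromatin genes outside the 53 were read from the same fit. Of 135 further chromatin genes 130 were tested and 0 were called, with 1 higher (Gadd45g, a factor in DNA demethylation) and 14 lower at an unadjusted p below 0.05. These are 0.769% and 10.8% of the list, both below the 1.83% and 15.5% of all entries. Their median log2 fold change was -0.083, or 0.034 after scaling. Smarcad1, a remodeller, had the smallest p, with 6.62, 7.03 and 7.08 FPKM in control and 5.03, 4.36 and 5.17 FPKM in siRNA libraries (log2 fold change -0.44, adjusted p = 0.144 by limma, and 0.0496 with library weights, where it was the 1 gene of the list called). Mta3, a NuRD subunit, and Zbtb33, which binds methylated DNA, followed with log2 fold changes of -0.56 and -0.38 and adjusted p of 0.187 and 0.189. Hmgb2, named after its values were seen, read 77.3, 58.7 and 73.5 FPKM in control and 51.2, 55.3 and 45.0 FPKM in siRNA libraries.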

How the data were processed

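The members and lists were chosen with earlier results of these data known. Per the labels' protocols, poly(A) RNA from 6 libraries was sequenced in paired ends with unique molecular identifiers and dUTP second strands. The submitters' processing notes name HISAT, StringTie, edgeR and the mm9 genome, without saying which step used which. The authors deposited FPKM values per gene, and read counts were not used here; 0 columns of per-sample values were left unused. Depth was estimated from low FPKM values as whole fragments, of which 39.6 to 43.6% came out whole within 0.05 of a step, so it is approximate.

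From these values, log2(FPKM + 1) was tested in the 13702 entries averaging 1 FPKM or more over the libraries with limma 3.58.1 in R 4.3.3 (lmFit, eBayes with trend, two-sided, called at an adjusted p below 0.05, Benjamini-Hochberg over all entries). A fold change on this scale understates low genes. The groups are as the labels give them. Tested on simulated data for 13702 entries of the same design, it recovered 37.8% of 1.5-fold and 77.8% of 2-fold changes. The simulation drew each entry independently, without shifts of whole libraries, and set the folds on log2(FPKM + 1). Paralogue ratios used exact permutation tests (scipy 1.17.1), with 23 pairs listed and 21 compared. Copies were found with BLAST+ 2.17.0 in GRCm38 transcripts. Genes given in full were those with the highest mean and the 2 smallest p of each role, those not overlapping on both scales, and the pairs whose ratios did not overlap; of the further chromatin genes, the 3 with the smallest p. Alternatives covered the pseudocount, filter, scaling, moderation, library weights, a replicate block and leaving out each library.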

Additional observations from a re-analysis of the deposited data

How the results depend on the processing

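Among 405 single-gene values over 24 genes and 17 settings, 383 kept their direction and their side of the threshold. With library weights Ezh2 and Mbd3 passed the threshold, so 2 members and 1 further chromatin gene were called lower; no other setting called a member. The count of all entries called higher was 16 and became 7 without a filter, 3 with median-of-ratios scaling, 4 with quantile normalization, 8 with robust moderation and 55 with library weights, and 2 to 15 when 1 library was left out (2 without siRNA library 3, 8 without control library 3, 10 without control library 2). Entries called lower numbered 19 and became 8 at a mean of at least 5 FPKM, 11 with median-of-ratios scaling, 12 with quantile normalization and 265 with library weights, and 6 to 23 when 1 library was left out (6 without siRNA library 3, 12 without control library 1). The cause was not tested. The median log2 fold change of the members was 0.022 with median-of-ratios scaling, 0.037 with quantile normalization and 0.089 with the ribosomal RNA entries removed.

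Small values changed sign, 20 in 10 members, through the scaling itself in most. In the order median-of-ratios, quantile and ribosomal RNA removed, Chd4 was 0.030, 0.078 and 0.098, Mbd1 0.014, 0.011 and 0.080, Smarcd1 0.086, 0.11 and 0.15, and Tet3 0.022, 0.021 and 0.089. Smarca4 was 0.0085 with quantile normalization and 0.021 with ribosomal RNA removed, and with the latter Eed was 0.0091, Hdac1 0.013, Kdm1a 0.018 and Smarcd3 0.015. With 1 library left out, Ezh1 ran from -0.041 (without control library 1) to 0.21 and Smarcd1 from -0.13 to 0.028 (without control library 3). The 7 non-overlapping ratios numbered 7 to 9 under the alternatives. Leaving out a library cannot make separated groups overlap, so in those settings the count could not fall below 7.

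Same-numbered libraries correlated at 0.046, 0.015 and 0.13 in their deviations, and other-numbered ones at -0.17 to 0.12. With 3 libraries a group, these values cannot tell whether the numbers pair the samples. With the replicate block, 23 entries were called higher and 23 lower, and 0 members. With 3 libraries a group, the simulated data recovered 37.8% of 1.5-fold and 77.8% of 2-fold changes, so changes of these sizes can be missed.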
